A study of Mus musculus with 12 samples.

Results

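The BCL2 family holds the proteins that decide whether the outer membrane of the mitochondrion is opened during apoptosis. The 10 genes described here were chosen by symbol: the pro-survival genes Bcl2, Bcl2l1 (BCL-XL) and Mcl1, the effectors Bax and Bak1, and the BH3-only genes Bcl2l11 (BIM), Bbc3 (PUMA), Pmaip1 (NOXA), Bid and Bad. All 10 were among the 13016 genes of the table, and 8 of them were among the 10690 genes tested. No member passed the test in any of the 3 comparisons between genotypes. On the scale of that test, the largest group differences were a lower Bid in dKO and a higher Bcl2l1 in dKO_Flt3ITD, each against control. That scale understates changes of low genes such as Bcl2.

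Messenger RNA was measured in early thymic progenitors, the first T-lineage cells of the thymus, of C57BL/6 mice, with 100 sorted cells in each library and 4 libraries in each of 3 groups. Control cells carried floxed Ezh2 and floxed Runx1 on both alleles and no recombinase. The cells called dKO had the same floxed alleles and were Rag1Cre+, a recombinase driven from a gene of lymphoid progenitors. The cells called dKO_Flt3ITD had the floxed alleles, Rag1Cre+ and in addition 1 Flt3 allele with an internal tandem duplication. Neither the age of the mice nor whether replicates came from different mice is stated in the labels. A p-value here therefore reflects the scatter among libraries, which may be technical. Levels are given as RPKM, a read number per unit of transcript length and of library size, which puts genes of different length on one scale. The summed RPKM differed between libraries, from 515638 in control 1 to 1071041 in dKO_Flt3ITD 1.

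In the textbook account, BAX and BAK1 form the pores through which cytochrome c leaves the mitochondrion, and BCL2, BCL-XL and MCL1 hold them in check. The BH3-only proteins carry stress signals: they bind the pro-survival proteins and some also activate the effectors directly. In thymocyte progenitors this balance is known to follow cytokine signals, and MCL1 is required for the survival of early lymphoid cells.

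The members share the BH3 core, a leucine followed 4 residues later by a small residue and then by aspartate. This stretch takes part in binding between family members. Its coding bases are shown for 9 members, as the common feature that the choice by symbol did not use. They were read from the longest open reading frame of each gene's GENCODE release M21 transcripts (GRCm38) and are 30 bases long, 5′ to 3′, with capitals for the leucine codon and for the codons of the small residue and the aspartate.
Bcl2: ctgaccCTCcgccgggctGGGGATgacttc
Bcl2l1: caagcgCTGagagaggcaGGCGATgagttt
Mcl1: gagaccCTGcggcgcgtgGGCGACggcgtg
Bax: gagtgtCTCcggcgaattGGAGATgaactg
Bak1: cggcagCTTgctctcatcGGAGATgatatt
Bcl2l11: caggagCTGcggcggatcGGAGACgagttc
Bbc3: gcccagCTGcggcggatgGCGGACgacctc
Bid: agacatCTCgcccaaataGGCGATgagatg
Bad: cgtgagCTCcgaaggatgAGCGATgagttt
The small residue is glycine in 7 of these, alanine in Bbc3 and serine in Bad.

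Reads recovered from the table totalled 13623436 to 33985972 per library, and the tested genes had a mean correlation with the other libraries of 0.786 in control 1 and up to 0.863 in the other 11, all above control 1. Control 1 and dKO_Flt3ITD 1 stood apart in gene length. In control 1 the log2 level rose by 0.20 with each doubling of transcript length relative to the mean of all libraries, and in dKO_Flt3ITD 1 it dropped by 0.31, against −0.08 to 0.09 in the other 10. Bcl2 and Bcl2l11 are in the longest quartile of the tested genes and Bax and Bad in the shortest, so results are also given without the 3 libraries numbered 1 (control 1, dKO 1 and dKO_Flt3ITD 1), a choice made with the data in view. The change per doubling in dKO 1 was −0.08, within the range of those 10. Bid and Bcl2l1 are in neither the longest nor the shortest quartile. Of the deleted genes, Ezh2 was lower in all 8 Rag1Cre+ libraries (12.03 to 29.8 RPKM) than in the 4 controls (32.8 to 45.7 RPKM). Runx1 was higher there, at 32.6 to 58.8 against 16.3 to 25.3 RPKM. Its value over the whole gene does not check the deletion. All 10 symbols of the progenitor marker list, among them Kit, Cd44 and Notch1, were matched. Their summed level ran from 436 to 651 RPKM in control, from 403 to 475 in dKO and from 387 to 463 in dKO_Flt3ITD. These genes did not move as one. Kit, Cd44 and Notch1 overlapped between groups. Ccr9 was at 5.72 to 11.6 RPKM in control, 0 to 6.44 in dKO and 0 to 0.0855 in dKO_Flt3ITD. Flt3 was at 53.3 to 110, 12.9 to 38.7 and 7.73 to 70.1 RPKM in the same order. Lyl1 went the other way, at 25.2 to 43.8, 28.6 to 57.1 and 54.3 to 88.1 RPKM. Whether the groups held progenitors of the same stage was not tested.

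**Figure D1:**
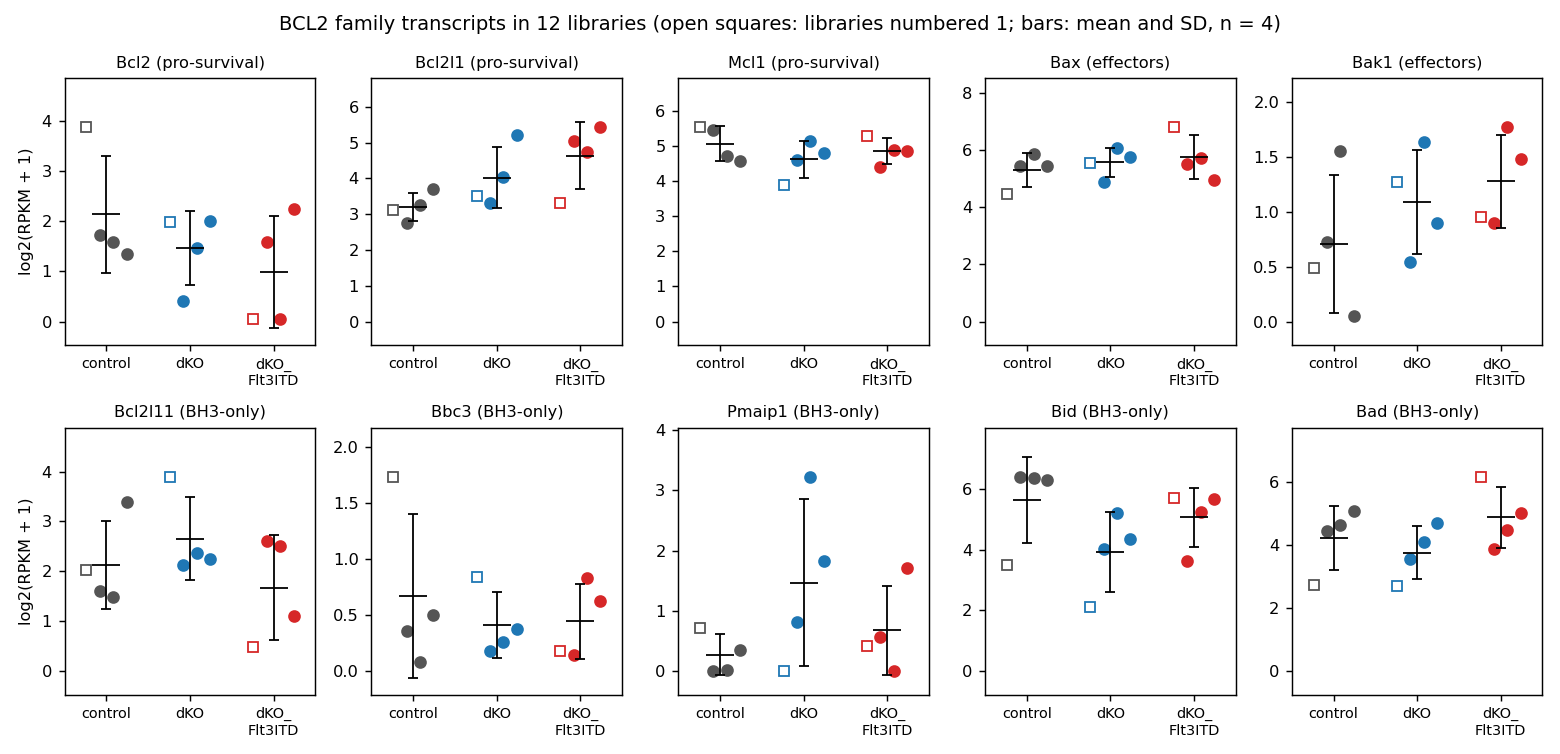
Level of each of the 10 genes as log2(RPKM + 1) in the 12 libraries (points; open squares are the libraries numbered 1), with the mean and SD of the 4 libraries of each group. Bid was at 76.8 to 83.3 RPKM in 3 controls and at 10.3 in the other, and Bcl2l1 reached 25.6 to 42.2 RPKM in 3 dKO_Flt3ITD libraries.

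In control progenitors the members spanned a wide range of levels. Bid had the highest mean, 62.9 ± 35.2 RPKM (SD, n = 4), above 89.2% of all genes of the table. Bax followed with 40.8 ± 14.9 RPKM, Mcl1 with 34.2 ± 11.9 and Bad with 20.9 ± 11.3. Bcl2l1 had 8.43 ± 2.59 RPKM, Bcl2 4.87 ± 5.86 and Bcl2l11 4.12 ± 3.66. At the bottom stood Bbc3 with 0.773 ± 1.05 RPKM, Bak1 with 0.753 ± 0.819 and Pmaip1 with 0.236 ± 0.305, above 10.97% of genes. The SDs of neighbours in this order overlapped. Bid, Bax, Mcl1 and Bad were each above Bak1, Bbc3 and Pmaip1 in all 4 controls.

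Mcl1 (chromosome 3, 95658788 to 95663176, GRCm38), whose short-lived protein protects lymphoid progenitors, was the most abundant pro-survival transcript in control. It stood at 45.6, 43.3, 25.1 and 22.7 RPKM in controls 1 to 4. In dKO it had 13.9, 23.5, 34.6 and 27.2 RPKM, and in dKO_Flt3ITD 38.2, 20.05, 28.6 and 27.9. The 3 groups overlapped, with the lowest value in dKO 1 and the highest in control 1. Its log2 fold change in dKO against control was −0.45 (SE 0.38, limma adjusted p = 0.849), with a 95% interval of −1.26 to 0.36. Without the libraries numbered 1 that difference was −0.05.

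Bcl2l1 (chromosome 2, 152780668 to 152831728), which encodes BCL-XL, had 7.62, 5.71, 8.49 and 11.9 RPKM in controls 1 to 4. In dKO it had 10.4, 8.92, 15.4 and 35.9 RPKM, and in dKO_Flt3ITD 8.84, 32.2, 25.6 and 42.2. Libraries 2 to 4 of dKO_Flt3ITD thus lay above all 4 controls and dKO_Flt3ITD 1 lay among them, while in dKO only libraries 3 and 4 exceeded the highest control. Group means were 8.43 ± 2.59, 17.7 ± 12.5 and 27.2 ± 14.02 RPKM (SD, n = 4). The log2 fold change of dKO_Flt3ITD against control was 1.43 (SE 0.52, 95% interval 0.34 to 2.53), with an unadjusted p of 0.0135 and a limma adjusted p of 0.220, so it did not pass. Without the libraries numbered 1 the groups did not overlap, as for 19.6% of all tested genes, and the log2 fold change was 1.84 with a limma adjusted p of 0.117. With each library's length trend removed and all libraries kept it was 1.38 (limma adjusted p = 0.224). For dKO against control the log2 fold change with all libraries was 0.82 (SE 0.52, limma adjusted p = 0.740). Of the macrophage markers, 8 of 10 symbols were matched, and their summed level ran from 19.2 to 66.8 RPKM in control, from 45.6 to 141 in dKO and from 50.4 to 154 in dKO_Flt3ITD. Its genes did not move as one. Emr1 was at 0 to 0.0371 RPKM in control, 0.0331 to 7.26 in dKO and 2.48 to 43.4 in dKO_Flt3ITD, whereas C1qb had a mean of 13.4 RPKM in control and 4.85 in dKO_Flt3ITD, and Vcam1 was at 0 in all dKO_Flt3ITD libraries. Granulocyte and monocyte markers, 5 of 9 matched, summed to 67.8 to 248 RPKM in control, 24.6 to 133 in dKO and 38.2 to 1336 in dKO_Flt3ITD. Among them Ctsg stood at 0.442 to 13.7 RPKM in control and 15.3 to 218 in dKO_Flt3ITD, and Elane at 0 in all controls and at 0.044 to 105 in dKO_Flt3ITD. Mpo overlapped between groups, at 66.0 to 230 RPKM in control, 15.4 to 105 in dKO and 7.71 to 721 in dKO_Flt3ITD. Its means were 146, 60.2 and 200 RPKM in the same order. The sum of 1336 RPKM was that of a single dKO_Flt3ITD library. Of the dendritic cell markers 9 of 10 were matched. Their sum was 45.9 to 486 RPKM in control, 183 to 351 in dKO and 93.2 to 1945 in dKO_Flt3ITD. H2-Aa, H2-Ab1, Cd74, Flt3l and Siglech had higher means in dKO_Flt3ITD than in control. Itgax, Zbtb46, Batf3 and Xcr1 had lower ones. The part of all such cells in the Bcl2l1 values was not tested, and in sorted pools more cells of a type and more RNA per cell cannot be told apart.

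Bcl2 (chromosome 1, 106538178 to 106714274), the founding pro-survival gene, was low in most libraries. Control 1 had 13.7 RPKM, and controls 2 to 4 had 2.28, 2.005 and 1.55. The dKO libraries had 2.93, 0.331, 1.75 and 3.03 RPKM. In dKO_Flt3ITD libraries 1 and 3 were near 0, at 0.0285 and 0.0419 RPKM or 6 and 8 reads, whereas libraries 2 and 4 had 2.01 and 3.73 RPKM. So dKO_Flt3ITD held both the lowest values of the study and one above every dKO library, and all groups overlapped. Its log2 fold change against control was −1.15 (SE 0.67, 95% interval −2.55 to 0.26, limma adjusted p = 0.487), and −0.25 without the libraries numbered 1. On the log2 read scale of voom, which gives low values more range, the same change was −3.69 with a limma-voom adjusted p of 0.286.

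**Figure D2:**
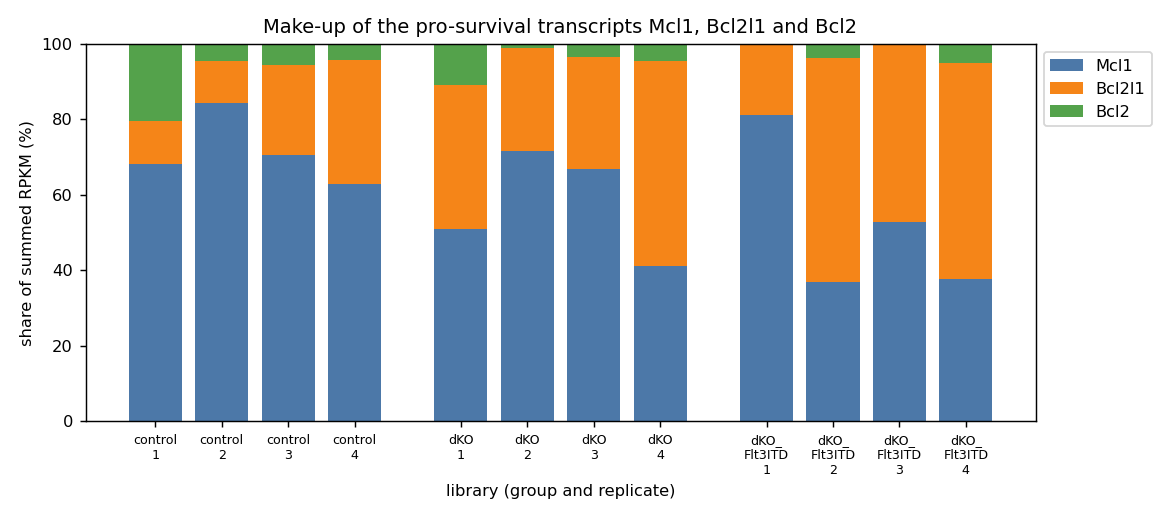
Share of Mcl1, Bcl2l1 and Bcl2 in the summed RPKM of the 3 pro-survival genes, as stacked bars for each of the 12 libraries. Mcl1 made up 62.8% to 84.4% in control and as little as 36.9% in dKO_Flt3ITD, where the share of Bcl2l1 reached 59.3%.

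The make-up of the pro-survival transcripts followed from these levels and is given as a description. Mcl1 made up 68.2%, 84.4%, 70.5% and 62.8% of the summed RPKM of the 3 genes in controls 1 to 4. It made up 51.05%, 71.7%, 66.9% and 41.1% in dKO, and 81.2%, 36.9%, 52.8% and 37.8% in dKO_Flt3ITD. The share of Bcl2l1 was 11.2% to 32.9% in control, 27.3% to 54.3% in dKO and 18.8% to 59.3% in dKO_Flt3ITD. In 3 mutant libraries, dKO 4 and dKO_Flt3ITD 2 and 4, Bcl2l1 and not Mcl1 was the most abundant of the 3, which was so in no control. The summed level itself overlapped between groups, at 35.6 to 66.9 RPKM for the controls, 27.2 to 66.1 in dKO and 47.1 to 73.8 in dKO_Flt3ITD.

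Of the effectors, Bax (chromosome 7, 45461697 to 45466898) was abundant and Bak1 (chromosome 17, 27019810 to 27029009) scarce in every library. Bax had 21.1, 42.2, 57.4 and 42.4 RPKM in controls 1 to 4, and 45.9, 28.6, 66.0 and 52.5 in dKO. In dKO_Flt3ITD it had 110.1, 44.1, 52.1 and 30.0 RPKM. Its lowest and highest values of the study were thus in control 1 and dKO_Flt3ITD 1, the libraries with the length trends, and Bax is in the shortest quartile of genes. Without the libraries numbered 1 the group means were 47.3 ± 8.75, 49.04 ± 18.9 and 42.1 ± 11.2 RPKM (SD, n = 3). Bak1 ran from 0.0346 to 1.92 RPKM in control, from 0.459 to 2.11 in dKO and from 0.858 to 2.41 in dKO_Flt3ITD, on 2 to 119 reads. Its log2 fold change of dKO_Flt3ITD against control was 0.57 (SE 0.47, limma adjusted p = 0.654). The ratio of Bax to Bak1 RPKM was at least 16.8 in each of the 12 libraries, its value in dKO_Flt3ITD 4. Bax had log2 fold changes of 0.26 in dKO and 0.44 in dKO_Flt3ITD against control, with limma adjusted p of 0.944 and 0.709, and the latter turned to −0.19 without the libraries numbered 1.

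Bid (chromosome 6, 120891930 to 120916853), the BH3-only protein that caspase-8 cleaves and that links death receptors to the mitochondrion, showed the widest range of group means among the members. Controls 2, 3 and 4 were close together at 83.3, 81.4 and 76.8 RPKM, and control 1 had 10.3. The dKO libraries had 3.32, 15.2, 36.2 and 19.2 RPKM. In dKO_Flt3ITD it had 51.3, 11.4, 36.5 and 49.9 RPKM. All 8 mutant libraries therefore lay below 3 of the 4 controls, and control 1 lay within the mutant range. Means were 62.9 ± 35.2, 18.5 ± 13.6 and 37.3 ± 18.5 RPKM (SD, n = 4).

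The log2 fold change of Bid in dKO against control was −1.71 (SE 0.71, 95% interval −3.21 to −0.22), with an unadjusted p of 0.0271 and a limma adjusted p of 0.435. Removing each library's length trend gave −1.77 with a limma adjusted p of 0.351. Leaving out control 1 gave −2.43 with a limma adjusted p of 0.113, and leaving out the 3 libraries numbered 1 gave −1.82 with 0.189. Without those 3 libraries Bid did not overlap between dKO and control, as for 14.8% of all tested genes. In dKO_Flt3ITD against control the log2 fold change was −0.58 with all libraries and −1.50 without those 3, where the limma adjusted p was 0.186. The groups did not overlap there, as for 19.6% of all tested genes, and both comparisons share the control libraries. In dKO_Flt3ITD against dKO the log2 fold change was 1.14 (SE 0.71, limma adjusted p = 0.763) and 0.32 without those 3 libraries. Later thymocyte markers, 8 of 10 matched, were also apart in dKO: their summed level ran from 35.2 to 58.6 RPKM in control, from 105 to 163 in dKO and from 17.2 to 95.2 in dKO_Flt3ITD. Rag2 had the highest mean of these markers in dKO, 84.2 RPKM against 12.4 in control. Il2ra had means of 11.2 RPKM in control and 27.4 in dKO, Cd4 of 0.851 and 4.04 and Rag1 of 0.915 and 2.58, all higher in dKO. Ptcra had means of 14.5 and 5.87 RPKM, Cd3d of 1.47 and 0.527 and Cd8a of 1.15 and 0.454, all lower in dKO. Natural killer and innate lymphoid markers, 4 of 7 matched, summed to 16.3 to 70.9 RPKM in control, 2.46 to 16.5 in dKO and 0.200 to 41.9 in dKO_Flt3ITD. In control that sum was nearly all Klrd1, which had means of 35.9 RPKM in control and 4.26 in dKO, while Il1rl1 and Rora had higher means in dKO. The part of either in the Bid values was not tested. An exon of Bid shares up to 628 bases with Bcl2l13 on the opposite strand, and whether reads were counted by strand is not given in the sources used here, so reads in that stretch cannot be told apart. Bcl2l13, named for this overlap, was low, from 1.07 to 4.75 RPKM over the 12 libraries.

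Bad (chromosome 19, 6941861 to 6951899), a BH3-only protein that growth factor signals silence by phosphorylation, had 5.74, 21.0, 23.8 and 32.9 RPKM in controls 1 to 4. In dKO it had 5.53, 10.9, 16.1 and 25.1 RPKM. In dKO_Flt3ITD it had 71.2, 13.6, 21.3 and 31.2 RPKM, and library 1 was again the highest of the study. Bad is short like Bax. The log2 fold change of dKO_Flt3ITD against dKO was 1.11 (SE 0.59, 95% interval −0.12 to 2.35, limma adjusted p = 0.688). It was 0.33 without the libraries numbered 1 and 1.06 with each library's length trend removed. An exon of Bad shares up to 517 bases with Gpr137 on the opposite strand, and one of Bak1 up to 257 with Ggnbp1, with the same limit as for Bid.

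Bcl2l11 (chromosome 2, 128126038 to 128162547), which encodes BIM, the BH3-only protein of cytokine withdrawal and of negative selection, had single high libraries in 2 groups. Controls had 3.07, 2.04, 1.81 and 9.55 RPKM and dKO libraries 13.9, 3.36, 4.14 and 3.72. The dKO_Flt3ITD libraries had 0.394, 5.07, 4.67 and 1.15 RPKM. Library 4 was the high control and library 1 the high dKO sample, and the groups overlapped. The log2 fold change of dKO_Flt3ITD against dKO was −0.98 (SE 0.63, 95% interval −2.31 to 0.35, limma adjusted p = 0.764), and −0.17 without the libraries numbered 1. The ratio of Bcl2 to Bcl2l11 RPKM was 0.163 to 4.45 in control, 0.0984 to 0.815 in dKO and 0.00896 to 3.24 in dKO_Flt3ITD. The ratio of Mcl1 to Bcl2l11 was 2.38 to 21.2 in control, 1.002 to 8.34 in dKO and 3.95 to 97.1 in dKO_Flt3ITD, so both ratios overlapped between groups.

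The p53-inducible BH3-only genes Bbc3 and Pmaip1 were below the level needed for the test, which was 1 RPKM in at least 4 libraries. Bbc3 (chromosome 7, 16308393 to 16318205) reached 1 RPKM in 1 library, control 1 with 2.33 RPKM or 125 reads. The other controls had 0.279, 0.0609 and 0.421 RPKM. In dKO it was at 0.133 to 0.788 RPKM and in dKO_Flt3ITD at 0.109 to 0.779, from 4 to 38 reads. Pmaip1 (chromosome 18, 66458533 to 66465565) was at 0.653, 0, 0.0151 and 0.274 RPKM in controls 1 to 4. The dKO libraries had 0, 0.767, 8.37 and 2.57 RPKM, and the dKO_Flt3ITD libraries 0.332, 0.485, 0 and 2.30. Libraries 2 to 4 of dKO were thus above all controls and dKO 1 had no read. The libraries at 0 allow up to 3 reads, or 0.0567 RPKM for control 2, 0.0677 for dKO 1 and 0.0458 for dKO_Flt3ITD 3, for counting error only. In a fit of all 13016 genes with no filter, the log2 fold change of Pmaip1 in dKO against control was 1.20 (SE 0.58, limma adjusted p = 0.612), and that of Bbc3 was −0.26 (SE 0.32, limma adjusted p = 0.918).

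**Figure D3:**
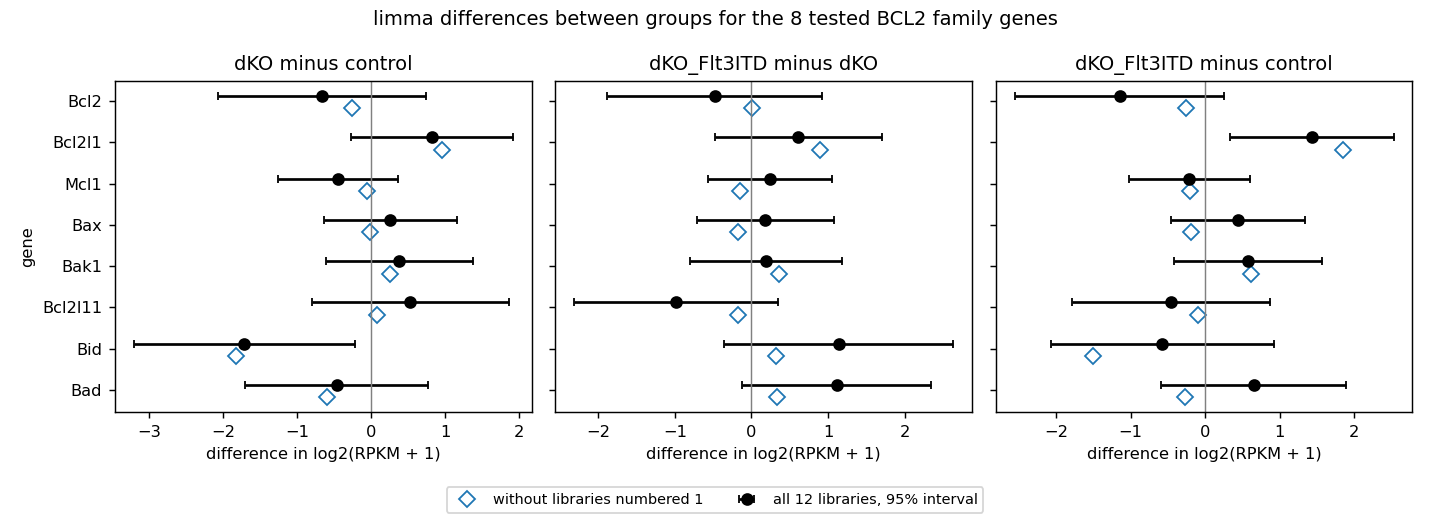
Difference in log2(RPKM + 1) between groups for the 8 tested members, with the 95% interval from limma over all 12 libraries (black) and the value without the 3 libraries numbered 1 (blue diamonds). The intervals of Bid in dKO against control and of Bcl2l1 in dKO_Flt3ITD against control do not include 0, before adjustment over 10690 genes.

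Counted as a family, none of the 8 tested members passed in dKO against control, where limma called 1.02% of all tested genes, and 1 of 8, Bid, had an unadjusted p under 0.05, against 9.18% of all genes. The log2 fold changes were 4 up and 4 down, with a median of −0.10 against 0.01 over all genes. In dKO_Flt3ITD against dKO none passed, as for all genes (0.00%), and none had an unadjusted p under 0.05, against 7.71% of all genes. Here 6 were positive and 2 negative, with a median of 0.21 against 0.00 over all genes. In dKO_Flt3ITD against control none passed, against 1.50% of all genes, and 1 of 8, Bcl2l1, had an unadjusted p under 0.05, against 13.4%. The split was 4 and 4 with a median of 0.11. No tested member was without overlap between groups in any comparison, a state found in 6.30%, 4.28% and 7.67% of tested genes.

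Without the 3 libraries numbered 1, again none of the 8 passed in dKO against control, dKO_Flt3ITD against dKO or dKO_Flt3ITD against control, where limma called 0.421%, 0.00935% and 0.982% of all tested genes. Bid then had an unadjusted p under 0.05 in dKO against control, against 7.97% of all genes. No member did in dKO_Flt3ITD against dKO, against 9.05%, and none was without overlap there, against 13.3%. Bid and Bcl2l1 did in dKO_Flt3ITD against control, against 14.8%. The comparisons with control share the control libraries, and the intervals above are wide: the test does not show that members had equal levels.

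Pms2 and Susd3 were among the transcripts whose level over the 12 libraries was most like that of Bid, with a Pearson correlation of log2(RPKM + 1) of 0.933 and 0.915. Those most like Bcl2l1 were Plekho2, Tlr4 and Map9, with 0.906, 0.902 and 0.853. All points share their library, so depth and length trends enter these values.

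Among the remaining apoptosis genes, chosen with earlier results of these data known, none of 39 tested passed in any comparison. Of 47 symbols in the 4 lists 43 were in the table. In dKO against control 23 were higher and 16 lower, at a median log2 fold change of 0.13. Of the 39, 4 had an unadjusted p under 0.05, near the 9.18% of all genes: Bok, Tnfrsf1a, Tradd and Bnip3, the last 2 named after their values were seen. In both comparisons of dKO_Flt3ITD, 13 were positive and 26 negative, with medians of −0.19 against dKO and −0.20 against control. Of the 39, 6 and 7 had an unadjusted p under 0.05. These shares were above the 7.71% and 13.4% of all genes, and the excess was not tested. Of the 15 tested genes of the apoptosome, the caspases and their inhibitors, 12 were negative in each of these comparisons, which share the dKO_Flt3ITD libraries. Over all 10690 tested genes 5314 were negative against dKO and 5334 against control.

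**Figure D4:**
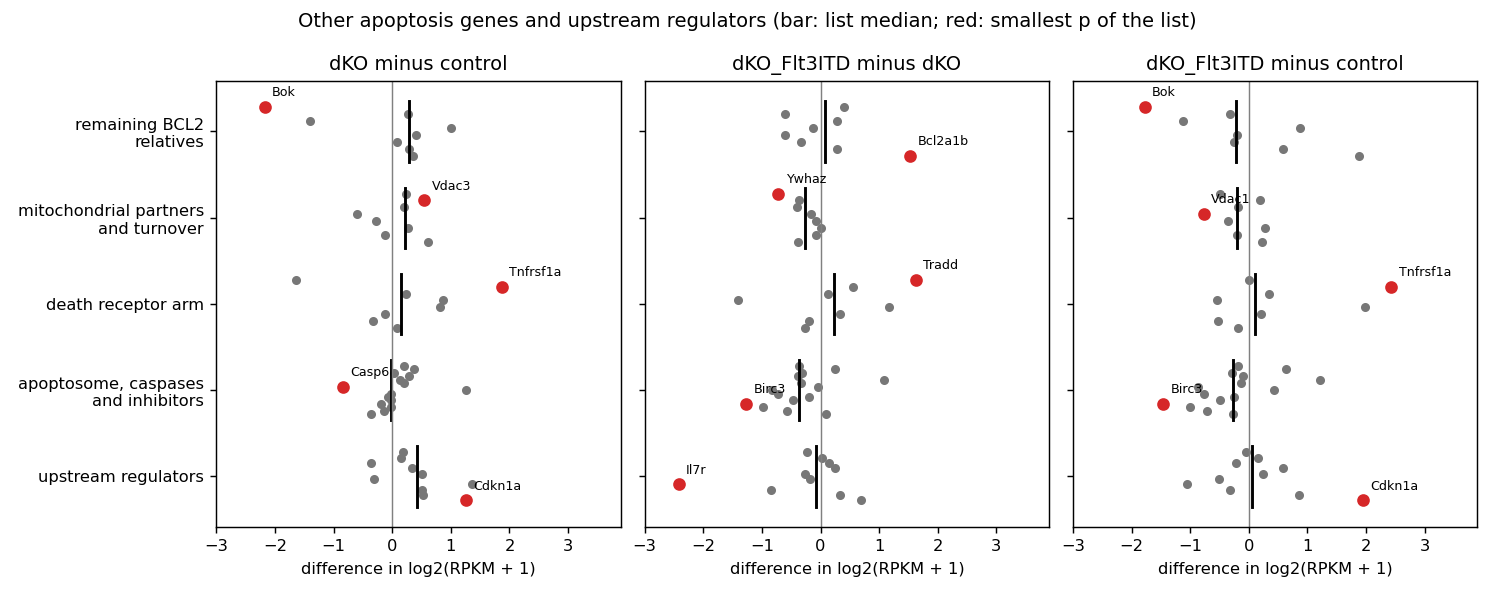
Difference in log2(RPKM + 1) for each tested gene of the 5 lists in the 3 comparisons (grey points), with the median of each list (bar) and the gene of smallest p named in red. None passed, and the smallest adjusted p was that of Tnfrsf1a in dKO_Flt3ITD against control, 0.0688.

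Bok, a BAX-like relative of the effectors, had the smallest p of the BCL2 relatives in both comparisons with control. It stood at 9.14, 0.105, 5.49 and 5.39 RPKM in controls 1 to 4, was at 0 in dKO 1 to 3 and at 0.112 in dKO 4. In dKO_Flt3ITD it was at 0 in libraries 1 to 3 and at 2.42 RPKM in library 4. Control 2, with 3 reads, was the exception among the controls. The log2 fold changes were −2.18 in dKO and −1.77 in dKO_Flt3ITD, with limma adjusted p of 0.139 and 0.207. Without control 2 they were −2.87 and −2.46, and Bok passed in both with limma adjusted p of 0.0154 and 0.0366. Leaving out the control that stood apart favours a call, and Bok passed under no other of the 25 alternatives. Bcl2a1b, a pro-survival relative that belongs to a group of near-identical copies and whose value is therefore uncertain, had the smallest p of that list in dKO_Flt3ITD against dKO, with a limma adjusted p of 0.705.

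In the death receptor arm, Tnfrsf1a, the TNF receptor that can start caspase-8 activation or survival signalling, had 5.65, 11.97, 12.4 and 0.370 RPKM in controls 1 to 4. It had 9.78, 22.1, 43.5 and 24.6 RPKM in dKO and 36.3, 21.6, 36.0 and 41.6 in dKO_Flt3ITD. All dKO_Flt3ITD libraries lay above all controls, with a log2 fold change of 2.43 (SE 0.63, limma adjusted p = 0.0688). Of the 39 genes 3 were without overlap in that comparison, Tnfrsf1a, Birc3 and Casp2, a share near the 7.67% of all tested genes. It passed with a pseudocount of 5 (limma adjusted p = 0.0470) and after quantile normalization (0.0452). In dKO against control its log2 fold change was 1.87 (limma adjusted p = 0.246). The macrophage marker sum given beside Bcl2l1 also reached higher in dKO_Flt3ITD than in control, with overlap, and its part in the Tnfrsf1a values was not tested. Tradd, the adaptor of this receptor, stood at 14.7, 15.98, 28.8 and 32.2 RPKM in controls 1 to 4, 2.29, 4.50, 4.73 and 26.1 in dKO and 30.2, 14.1, 24.9 and 20.3 in dKO_Flt3ITD. It had the smallest p of the arm in dKO_Flt3ITD against dKO, with a log2 fold change of 1.63 and a limma adjusted p of 0.460. In dKO against control the log2 fold change of Tradd was −1.64 with all libraries, and it did not pass. Without dKO 4, the highest of its group, Tradd passed in that comparison, at −2.27 with a limma adjusted p of 0.0387. Leaving out the library that stood apart favours a call, as for Bok, and Tradd passed under no other alternative.

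Birc3, a ubiquitin ligase that restrains cell death downstream of TNF receptors, had 30.8, 17.3, 15.6 and 26.3 RPKM in controls 1 to 4 and 15.3, 14.9, 24.6 and 22.0 in dKO. In dKO_Flt3ITD it had 5.59, 4.05, 7.49 and 15.2 RPKM, each below all controls. The log2 fold change of dKO_Flt3ITD was −1.46 against control and −1.26 against dKO, with limma adjusted p of 0.120 and 0.460. Without dKO_Flt3ITD 4, the highest of its group, Birc3 passed against control, at −1.79 with a limma adjusted p of 0.0468. Leaving out that library favours a call, and Birc3 passed under no other alternative. Casp6, an executioner caspase, had the smallest p of its list in dKO against control, at 64.5 ± 15.3 and 38.01 ± 16.6 RPKM (SD, n = 4), with a limma adjusted p of 0.612. Of the mitochondrial channel genes, Vdac3 in dKO and Vdac1 in dKO_Flt3ITD had the smallest p of their list against control, with limma adjusted p of 0.744 and 0.467. Ywhaz, a 14-3-3 protein of the kind that holds phosphorylated BAD, did so in dKO_Flt3ITD against dKO, with a log2 fold change of −0.72 and a limma adjusted p of 0.568.

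Upstream regulators gave no call either, with 10 of 11 tested. Cdkn1a, a cell cycle inhibitor gene and p53 target, had 0.346, 0.669, 0.0396 and 1.91 RPKM in controls 1 to 4 and 1.00, 4.28, 4.20 and 2.97 in dKO. In dKO_Flt3ITD it had 10.6, 1.38, 6.54 and 6.12 RPKM, and only library 2 overlapped with control. Its limma adjusted p was 0.514 in dKO and 0.116 in dKO_Flt3ITD against control. Il7r, the interleukin-7 receptor whose signal is known to raise Bcl2, averaged 12.2 ± 8.90 RPKM in control, 25.6 ± 14.0 in dKO and 7.63 ± 12.2 with the Flt3 allele (SD, n = 4). The last mean rested on library 2, with 25.8 RPKM against 0.0883 to 2.79 in the others. The difference between the mutants had a log2 fold change of −2.42 and a limma adjusted p of 0.564. Promoter windows of 250 bases upstream of annotated starts (RefSeq, GRCm38.p6) were found for 9 members, 15 windows in all. The RUNX core TGTGGT, searched on both strands, was present in 1 of the 15, that of Bak1, against 14.0% of 32536 windows of all genes. The STAT pattern TTCNNNGAA was in none, against 7.04%.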

How the data were processed

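The authors deposited 1 table of RPKM for 13016 genes and 12 libraries. TopHat2 2.0.10, SAMtools 0.1.19, HTSeq 0.5.4p5 and the build mm10 are named per the submitters' processing notes, and libraries were made with SMARTer from sorted cells per the labels' protocols. Neither the total nor the gene lengths used for scaling were stated there. Whole reads behind the values were recovered from the smallest steps (100.0% of genes within 0.001 of a whole number). Limits from reads cover counting error alone, because amplification from 100 cells repeats molecules.

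The 10690 genes reaching 1 RPKM in 4 or more libraries were tested with limma 3.58.1 (R 4.3.3) on log2(RPKM + 1), which understates changes of low genes, with a mean-variance trend, a single model of the 12 libraries and Benjamini-Hochberg adjustment over all tested genes at 0.05. Intervals are unadjusted. The steps were tested on simulated data. Members and lists were chosen with earlier results of these data known. All 10 members are named, with a fold change, its SE and adjusted p for the 3 of smallest p per comparison and, where the text compares libraries, for others. Of each further list the gene of smallest p is named, since none passed. The alternatives were other pseudocounts, filters, scalings, library subsets, a replicate term and voom. Leaving out the libraries numbered 1 and removing length trends were added after seeing the data. One of the genes most like Bid is not reported here. Gene positions came from GENCODE release M21 (GRCm38, the build that mm10 names). Figures and summaries used Python 3.11.15, pandas 2.3.3 and matplotlib 3.10.9.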

Additional observations from a re-analysis of the deposited data

Results flagged for a closer look

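In 5 of the 30 sets of 4 libraries (10 genes in 3 groups), 1 library stood far from the other 3: the gap to its nearest neighbour, divided by the whole range, exceeded Dixon's 95% critical value. The rate of about 1 in 20 that chance gives for this criterion holds for normally distributed values, which was not tested for these RPKM. Control 1 was the library in 3 of the 5. Its Bcl2 was the highest of the controls, with a gap ratio of 0.940, and so was its Bbc3, with 0.842. Its Bid was the lowest, with a gap ratio of 0.910. Bcl2l11 was highest in control 4, with a gap ratio of 0.837, and in dKO 1, with 0.926. On average control 1 correlated at 0.786 with the other 11 libraries, less than any other library did.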

How the results depend on the processing

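The number of BCL2 family members called was 0 in each of the 3 comparisons under all 25 alternatives, and the smallest limma adjusted p of any member was 0.10004, for Bcl2l1 in dKO_Flt3ITD against control without dKO_Flt3ITD 1. The 9 fold changes chosen for having the smallest p kept their direction in all 222 refits (a minimum mean of 5 RPKM left out Bcl2, Bak1 and Bcl2l11), although Bcl2 in dKO_Flt3ITD against control ranged from −3.69 to −0.25 and Bid in dKO against control from −2.43 to −1.11. The count of other apoptosis genes, 0 in each comparison, became 1 in dKO_Flt3ITD against control with a pseudocount of 5 and with quantile normalization. It ranged from 0 to 1 over fits without 1 library in dKO against control and in dKO_Flt3ITD against control. Replicate numbers are shared by the groups. Deviations of same-numbered libraries correlated at −0.15 to 0.13, which cannot settle whether the numbers mark a pairing. With the number as a block, no member and no other apoptosis gene was called (0 in each comparison), and calls over all genes went from 109 to 85, from 0 to 0 and from 160 to 116. Voom on the recovered reads called 5, 0 and 27 genes. Limma without the libraries numbered 1 called 45, 1 and 105. Scaling to a fixed sum moved the all-gene median to −0.11, −0.09 and −0.21 (log2). Low reads limit Bak1, Bbc3 and Pmaip1.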
